A study of Mus musculus with 12 samples.

Results

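The 10 genes described here encode the machinery that loads peptides onto MHC class II molecules and shows them to CD4+ T cells. They were taken from the count table by symbol and not by a cutoff on their values, although earlier results of these data were known. They are the classical chains H2-Aa, H2-Ab1 and H2-Eb1, the invariant chain Cd74, the transactivator Ciita, the peptide exchange factor genes H2-DMa, H2-DMb1 and H2-DMb2, and the genes of its inhibitor, H2-Oa and H2-Ob. All 10 were found among the 24421 symbols of the table, and all 10 passed the filter on low counts that left 12981 genes. The cells came from the tibialis anterior of mice whose muscle had been injured with the myotoxin notexin, and were sorted on day 5 by a gate of live (PI-) CD45+ CD11B+ cells without LY6G/SIGLECF. The labels call them macrophages.

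The mice were Ifngr1 wt/null or Ifngr1 null/null and received daily intraperitoneal injections of a TNF-neutralizing antibody (anti-TNF) or of an isotype antibody. The product of Ifngr1 is the receptor chain that binds interferon gamma (IFN-γ). Each genotype was paired with each antibody, which gave 4 groups of 3 libraries, 12 in all. Every mouse carried at least 1 null allele, so the wt/null groups are heterozygous controls, and a group with 2 intact alleles was not analysed here. The antibody was given to the whole animal and not to the sorted cells alone. The labels do not say that each sample was a separate mouse, so the p-values measure the spread between samples, which may be technical.

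The classical chains pair as α and β subunits, H2-Aa with H2-Ab1 in the I-A molecule, and carry peptide at the cell surface. Cd74 blocks the groove of the new dimer and guides it to endosomes, where H2-DM removes the last piece of Cd74 and edits the bound peptides. H2-O binds H2-DM and restrains it, and it is known from B cells, thymic epithelium and some dendritic cells rather than from macrophages. Ciita does not bind DNA itself. It is recruited by RFX, CREB and NF-Y, which sit side by side on the X and Y boxes of class II promoters, and its own transcription in macrophages is a textbook response to IFN-γ, with IRF1 among its activators.

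The promoter sequences are shown because they are where Ciita acts, on classical and accessory genes alike. They come from RefSeq windows of 250 bases before to 50 bases after a gene's start on build GRCm38.p6, which held entries for 7 of the 10 genes and none for H2-Ab1, Cd74 or Ciita. The scans, on both strands, looked for TGATTGG, the Y box core bound by NF-Y, TGATGC, an X2 box form bound by CREB family factors, and TGACGTCA, the full cAMP response element. Capitals mark these matches, which lie on the gene's own strand in every sequence shown, and each sequence is written 5′ to 3′ toward the gene. In the order listed, the stretches are chr17:34287859-34287918 (minus strand), chr17:34305761-34305820, chr17:34153105-34153134, chr17:34145112-34145171, chr17:34092311-34092340 and chr17:34238801-34238860 (all plus strand). The stretches of H2-DMb1 and H2-Oa were kept to 30 bases because they overlap annotated exons.
H2-Aa: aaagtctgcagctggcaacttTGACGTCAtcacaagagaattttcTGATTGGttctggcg
H2-Eb1: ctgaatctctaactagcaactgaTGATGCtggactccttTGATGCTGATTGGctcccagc
H2-DMb1: TGATGCtaggctgattcactcagTGATTGG
H2-DMb2: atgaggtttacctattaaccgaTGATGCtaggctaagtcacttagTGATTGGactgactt
H2-Oa: cccattatctcagagaactgctcTGATTGG
H2-Ob: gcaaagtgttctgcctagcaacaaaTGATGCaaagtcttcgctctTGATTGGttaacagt

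TGATTGG was found in the windows of 6 genes, beginning 50 bases before the RefSeq start in H2-Aa, 61 in H2-Eb1, 63 in H2-DMb1, 92 in H2-DMb2, 45 in H2-Oa and 59 in H2-Ob. Of all 32851 RefSeq windows, 7.82% held TGATTGG on either strand, and 3.64% held it on the gene's strand before the start. TGATGC was found in H2-Eb1 (2 copies), H2-DMb1, H2-DMb2 and H2-Ob, and 10.9% of all windows held it. H2-Aa held TGACGTCA in the same place, which 1.79% of all windows held. From the start of the first of these matches to the start of TGATTGG were 24 bases in H2-Aa, 22 in H2-Eb1, 23 in H2-DMb1, 23 in H2-DMb2 and 20 in H2-Ob. H2-Oa had TGATTGG without either upstream match. H2-DMa had 2 windows, and these letters are not in either. No match overlapped another, although the second TGATGC of H2-Eb1 abuts its TGATTGG. A match is a run of letters in a window and was not measured as a binding site.

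The genes other than Ciita and Cd74 lie together in the H2 complex on chromosome 17 (GENCODE M21, GRCm38). H2-Oa is at chr17:34092340-34095234, H2-DMa at chr17:34119541-34139101, H2-DMb2 at chr17:34143307-34151555 and H2-DMb1 at chr17:34153072-34160230. H2-Ob is at chr17:34238903-34254414, H2-Ab1 at chr17:34257689-34269419, H2-Aa at chr17:34282744-34287823 on the minus strand and H2-Eb1 at chr17:34305867-34316674. Ciita is at chr16:10480059-10528418. Some counts may not belong to the named gene alone, because the strand setting of the counting is not given in the sources used here. Brd2, a bromodomain protein at 297 to 356 CPM (counts per M counts after TMM scaling, where M is mega), overlaps H2-DMa on the other strand, and Dexi, at 8.86 to 11.5 CPM, overlaps Ciita. The antisense BC051537 overlaps H2-Oa at no more than 0.0777 CPM, and the antisense Gm20513 overlaps H2-Eb1. The longest coding transcripts of H2-DMb1 and H2-DMb2 were identical at 93.69% of 1220 aligned bases, with an identical run of 221 bases, so how their reads were divided is uncertain.

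Library totals were 23.2 to 29.9 M counts. Ifngr1 was at 226 to 250.5 CPM in the 6 wt/null libraries and at 83.3 to 119 CPM in the 6 null/null libraries, lower in every null/null library, although not absent from the counts. Summed macrophage markers (12 genes, among them Csf1r, Lyz2 and C1qa) were at 32111 to 40836 CPM, and of 12 B cell markers Pax5 and Cr2 reached at most 3 and 2 counts in any library while Cd22 had 2548 to 3613, Cd79b 247 to 493 and Bank1 140 to 232. In wt/null anti-TNF replicate 2 and null/null anti-TNF replicate 1, 11 of 14 dendritic cell markers, 9 of 10 T and NK cell markers and 4 of 8 monocyte markers were above all 10 other libraries. The share of all genes that lay so was not computed, so these marker counts have no rate over all genes beside them. These 2 libraries, singled out after their values had been seen and both from anti-TNF groups, are called the 2 libraries that stand apart, and results that rest on them are given with and without them. Their titles share the number and letter 40C, which 1 library of each isotype group carries too and whose meaning is not given.

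Per kilobase of the longest coding transcript, the 10 genes spanned more than 3 orders of magnitude and kept nearly the same order in every library. Cd74 came first with a mean of 7593 CPM per kb over the 12 libraries, then H2-Aa with 4174, H2-Ab1 with 3560 and H2-Eb1 with 2187. H2-DMb1 with 204 and H2-DMa with 181 CPM per kb followed, and Ciita had 30.4. H2-Oa with 10.1, H2-Ob with 5.42 and H2-DMb2 with 4.40 CPM per kb were lowest. Each gene was above the next in 12 of 12 libraries, except that H2-Ob was above H2-DMb2 in 9 of 12. Class II transcripts therefore made up a visible share of the library: Cd74 alone took 0.653% to 1.69% of all counts, and H2-Aa 0.297% to 0.791%. At the low end, the smallest counts were 136 for H2-Oa, 203 for H2-Ob and 120 for H2-DMb2, where counting error alone is 8.57%, 7.02% and 9.13%.

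**Figure D1:**
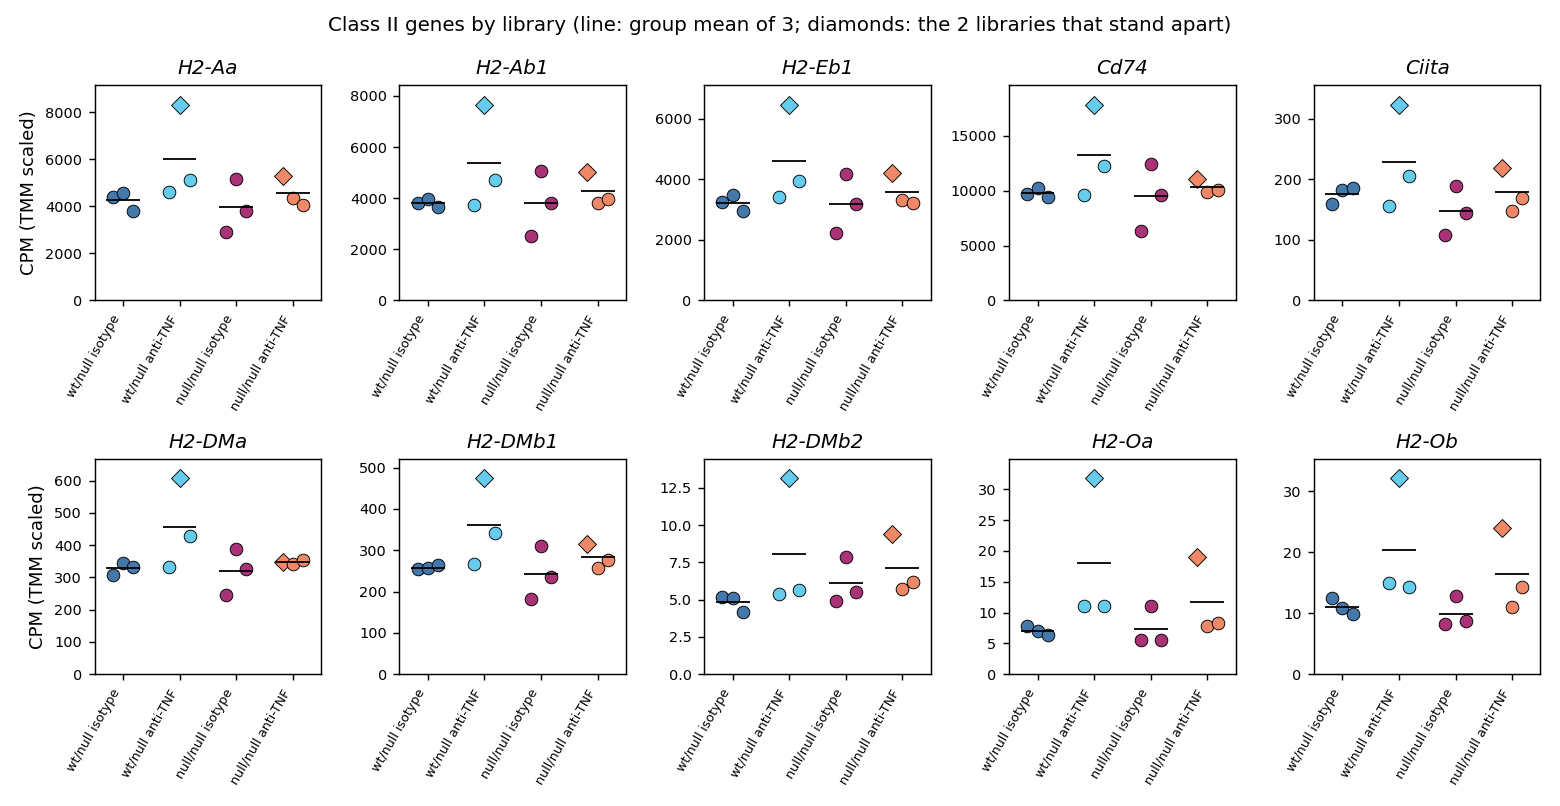
CPM (TMM scaled, linear axes from 0) of the 10 class II genes in the 12 libraries, by group, with the line at the mean of 3 libraries and diamonds for the 2 libraries that stand apart. wt/null anti-TNF replicate 2 was the highest library for all 10 genes, and the other anti-TNF diamond was clearly above the circles only for H2-DMb2, H2-Oa and H2-Ob.

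H2-Aa, the α chain of I-A, was at 4419, 4563 and 3808 CPM in the 3 wt/null isotype libraries, and null/null isotype had 2893, 5183 and 3809 CPM. The anti-TNF values were 4629, 8332 and 5113 CPM in wt/null and at 5307, 4373 and 4069 CPM in null/null. The isotype groups overlapped entirely, the null/null isotype group had the widest spread of the isotype groups, and 1 anti-TNF library stood well above the rest. H2-Ab1, its β chain, ranged from 2519 to 7666 CPM and H2-Eb1, the β chain of I-E, from 2233 to 6464 CPM, with the same highest and lowest library as H2-Aa. The lowest library was null/null isotype replicate 1 for 8 of the 10 genes. The exceptions were H2-DMb2, lowest in wt/null isotype replicate 3, and H2-Oa, lowest in null/null isotype replicate 3.

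Cd74, the invariant chain, was at 9699, 10238 and 9451 CPM in wt/null isotype, and null/null isotype had 6352, 12437 and 9635 CPM. Anti-TNF libraries had 9575, 17848 and 12263 CPM in wt/null and 11028, 9886 and 10064 CPM in null/null. Its groups overlapped in every comparison, and the spread within null/null isotype covered all 3 wt/null isotype values. The ratio of Cd74 to the classical chains hardly varied: the difference in log2 CPM (prior count 2) had an SD of 0.0771 over the 12 libraries, against an SD of 0.34 for the log2 CPM of Cd74 itself.

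Ciita was at 159, 182 and 186 CPM in wt/null isotype, and null/null isotype had 108, 189 and 145 CPM. Under the TNF antibody it was at 155, 324 and 206 CPM in wt/null and at 219, 148 and 169 CPM in null/null. The genotypes overlapped under either antibody, and Ciita stood at 147 ± 40.3 CPM (SD, n = 3) in null/null isotype, beside 175 ± 14.5 CPM in wt/null isotype. Ciita has several promoters that differ in cell type and in their response to IFN-γ, and counts per gene do not separate them.

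H2-DMb1, the main β chain gene of H2-DM here, was at 254, 256 and 264 CPM in wt/null isotype, and null/null isotype had 182, 310 and 234 CPM. Its anti-TNF values were 267, 474 and 343 CPM in wt/null and 315, 258 and 275 CPM in null/null. All 3 wt/null anti-TNF libraries were above the 3 wt/null isotype libraries, the lowest of them only just. H2-DMa, the α chain gene, ranged from 244 to 607 CPM. H2-DMb2, a second β chain gene, was at 5.16, 5.13 and 4.16 CPM in wt/null isotype, and null/null isotype had 4.88, 7.87 and 5.53 CPM. After anti-TNF it was at 5.40, 13.1 and 5.67 CPM in wt/null and at 9.43, 5.72 and 6.19 CPM in null/null. H2-DMb2 thus differed from H2-DMb1 in order as well as in level. The difference of H2-DMb1 minus H2-DMb2 in log2 CPM was 5.64 ± 0.283 (SD, n = 6) over the wt/null libraries. Over the null/null libraries it was 5.31 ± 0.164, with overlapping ranges. Under isotype it was 5.60, 5.62 and 5.96 in wt/null and 5.20, 5.29 and 5.38 in null/null, without overlap. Under anti-TNF it was 5.61, 5.17 and 5.90 in wt/null and 5.05, 5.48 and 5.46 in null/null. This difference was not tested, and no share of all genes without overlap is set beside it. It rests on low counts of H2-DMb2, at 120 to 130 in wt/null isotype and 120 to 204 in null/null isotype. How reads were divided between H2-DMb1 and H2-DMb2 is also uncertain.

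H2-Oa, the α chain of H2-O, was at 7.83, 6.97 and 6.37 CPM in wt/null isotype, and null/null isotype had 5.53, 11.07 and 5.53 CPM. The anti-TNF libraries were at 11.09, 31.8 and 11.03 CPM in wt/null and at 19.0, 7.74 and 8.35 CPM in null/null. The 2 highest values are the 2 libraries that stand apart, and apart from them 1 isotype and 2 anti-TNF libraries reached at least 11.03 CPM. H2-Ob, the β chain, was at 12.5, 10.8 and 9.94 CPM in wt/null isotype, and null/null isotype had 8.26, 12.8 and 8.71 CPM. In anti-TNF libraries it was at 14.9, 32.1 and 14.3 CPM in wt/null and at 24.0, 11.01 and 14.3 CPM in null/null. For both H2-O genes the 3 wt/null anti-TNF libraries were above all 3 wt/null isotype libraries, while the null/null groups overlapped.

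No class II gene differed detectably between mice without an intact Ifngr1 allele and mice with 1. Averaged over the antibodies, null/null against wt/null, 0 of the 10 genes passed edgeR's quasi-likelihood test at a Benjamini-Hochberg adjusted p below 0.05, where 0.0077% of all 12981 genes did, which is Ifngr1 itself. None passed at an unadjusted p below 0.05, where 2.46% of all genes did, and DESeq2 and limma voom also gave 0 at either threshold. The estimates were below 0 for 9 of the 10 genes, as for 49.9% of all genes, with a median log2 fold change of -0.22 and a median over all genes of 0.00023. Ciita had the lowest estimate, -0.30 ± 0.19 (SE) with a 95% interval of -0.72 to 0.11, and H2-DMb2 the only one above 0, at 0.08 ± 0.24. For H2-Aa the interval was -0.62 to 0.12 and for Cd74 -0.57 to 0.16, so reductions of Cd74 to 0.674 of the wt/null level were within the interval. In bulk samples such as these, fewer cells of a type and less RNA per cell cannot be told apart.

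The difference between the genotype estimates of the antibody arms passed the test for no member. Under the isotype antibody, the comparison without TNF blockade, the 10 genes had a median log2 fold change of -0.043 with 8 below 0, as 49.3% of all genes were. Of them 0 were called by edgeR, where 0.0077% of all genes were, and 0 passed an unadjusted p below 0.05, where 1.8% did. The direction turned with limma voom, where the median was 0.051 with 7 of 10 above 0. It also turned without null/null isotype replicate 1, where the median was 0.14 with 8 of 10 above 0. Without null/null isotype replicate 2 the median was -0.30 with 9 of 10 below 0. For H2-Ab1 the wt/null isotype mean was 3817 ± 159 CPM (SD, n = 3) and the null/null isotype mean 3795 ± 1267 CPM. Under anti-TNF the median was -0.36 with 10 of 10 below 0 (49.3% of all genes), again with 0 called by edgeR (0.0077% of all genes) and 0 at an unadjusted p below 0.05 (1.98% of all genes). Without wt/null anti-TNF replicate 2 that median was -0.025 with 4 of 10 above 0, and without wt/null anti-TNF replicate 1 it was -0.54 with 5 members at an unadjusted p below 0.05, where 4.35% of all genes passed. Without both libraries that stand apart, the median under anti-TNF was -0.18, and averaged over the antibodies it was -0.12. The averaged median was -0.044 with 4 of 10 above 0 without wt/null anti-TNF replicate 2 alone. Without null/null isotype replicate 2 the averaged median was -0.33 with 10 of 10 below 0. There 2 members passed an unadjusted p below 0.05 in edgeR (2.16% of all genes). Without wt/null anti-TNF replicate 1 the averaged median was -0.31, with 3 members at that threshold (3.12% of all genes). DESeq2 and limma voom gave 0 members at either threshold in both arms. The interaction, the genotype effect under anti-TNF minus that under isotype, was below 0 for all 10 genes (50.6% of all genes) with a median of -0.31, and 0 were called by edgeR at an adjusted p below 0.05 (0% of all genes) or at an unadjusted one (1.51%), with 0 also by DESeq2 and limma voom. Without wt/null anti-TNF replicate 2 the interaction had a median of 0.017 with 6 of 10 above 0, without null/null isotype replicate 2 it was -0.062, and without null/null isotype replicate 1 it was -0.51. Its estimates with all libraries ran from -0.68 ± 0.69 (SE) for H2-Oa to -0.10 ± 0.38 for Ciita.

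Anti-TNF gave higher estimates for every class II gene, largest for H2-O, and none passed the test. Averaged over the genotypes, 10 of 10 log2 fold changes were above 0, as were 51.6% over all genes, with a median of 0.35 against a median of 0.0057 over all genes. By edgeR 0 members and 0% of all genes were called at an adjusted p below 0.05, with members' adjusted p at 0.66 to 0.67. At an unadjusted p below 0.05 there were 3 members (H2-DMb1, H2-Oa and H2-Ob), where 7.31% of all genes passed. DESeq2 gave 7 members (8.13% of all genes) and limma voom 2 (6.26%). With 1 library left out at a time the edgeR count ran from 2 to 10, and it was 10 without wt/null anti-TNF replicate 1 (9.6% of all genes) or without null/null isotype replicate 2 (7.93%). The median then ran from 0.19, without wt/null anti-TNF replicate 2, to 0.46. DESeq2 called 14 genes in all, none of them a member, and gave no adjusted p for H2-DMb2, H2-Oa and H2-Ob.

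H2-Oa had a log2 fold change of 1.01 ± 0.35 (SE) under anti-TNF, averaged over the genotypes, with an interval of 0.23 to 1.78 (edgeR adjusted p = 0.66). H2-Ob had 0.80 ± 0.25 with an interval of 0.25 to 1.36 (edgeR adjusted p = 0.66). Those are 2.01-fold and 1.75-fold differences. The classical chains were at 0.35 ± 0.17 for H2-Aa, 0.33 ± 0.19 for H2-Ab1 and 0.34 ± 0.18 for H2-Eb1, Cd74 at 0.28 ± 0.17 and Ciita at 0.33 ± 0.19, all with intervals that include 0. H2-DMa was at 0.30 ± 0.14, H2-DMb1 at 0.35 ± 0.15 and H2-DMb2 at 0.48 ± 0.24. The estimates of H2-O thus lay apart from a narrow band that held the other genes, while their intervals overlapped those of the band.

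**Figure D2:**
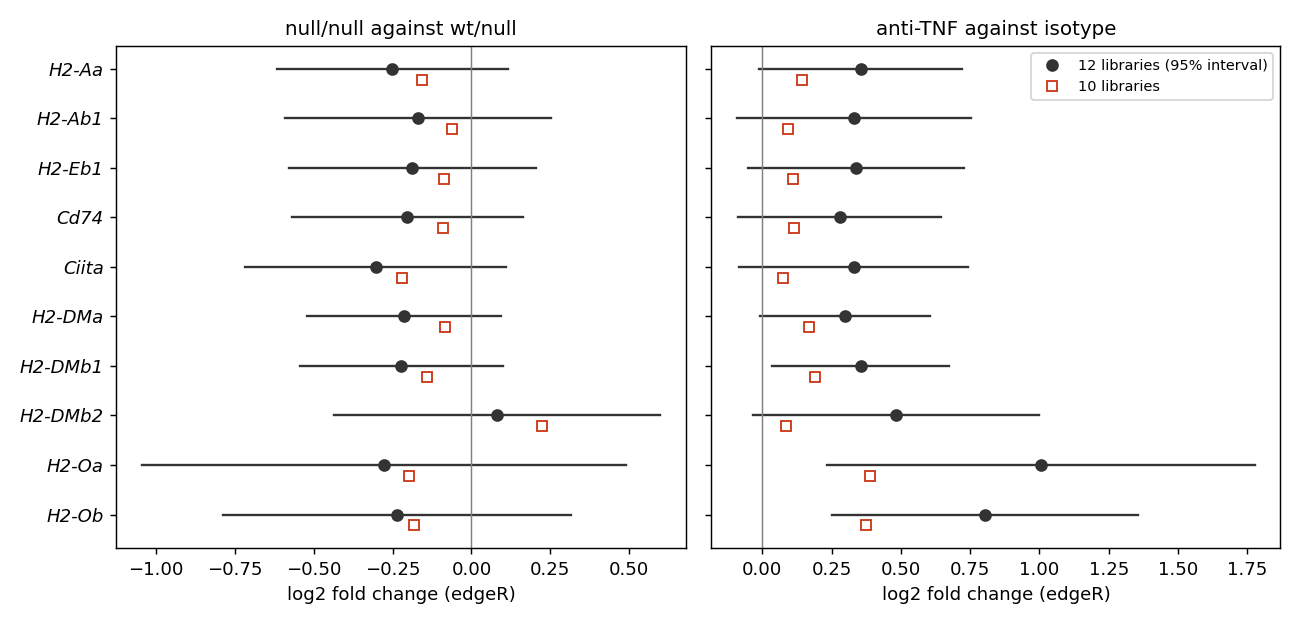
Log2 fold changes from edgeR of the 10 class II genes for null/null against wt/null (left) and for anti-TNF against isotype (right), each averaged over the other factor, with 95% intervals from all 12 libraries, and open squares for the estimates from the 10 libraries left without the 2 that stand apart. In the right panel the estimate is 1.01 against 0.39 for H2-Oa and 0.80 against 0.37 for H2-Ob, and the other genes lie between 0.08 and 0.19 without those libraries.

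Without the 2 libraries that stand apart, the anti-TNF estimates were 0.39 ± 0.19 (SE) for H2-Oa and 0.37 ± 0.14 for H2-Ob, both with an edgeR adjusted p of 1.00. The median over the 10 members was then 0.13, with 1 of 10 (H2-Ob) at an unadjusted p below 0.05 in edgeR, where 2.66% of all 13061 genes tested passed. The H2-O estimates were above those of the classical chains, which were at 0.09 to 0.14, Cd74 at 0.12 and Ciita at 0.08. In that fit the H2-DMb2 estimate was 0.08 ± 0.15.

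Within wt/null mice the anti-TNF estimates were largest, with a median of 0.50 over the members. All 3 anti-TNF libraries were above all 3 isotype libraries for 5 of 10 genes, H2-Aa, H2-DMb1, H2-DMb2, H2-Oa and H2-Ob, where 5.71% of all genes were so ordered. The 0 calls by edgeR at an adjusted p below 0.05 (0% of all genes) stood beside 5 at an unadjusted p below 0.05 (4.48% of all genes), 7 by DESeq2 (5.26%) and 2 by limma voom (3.7%). With 1 library left out at a time the edgeR count at the unadjusted threshold ran from 0 to 10. It was 10 without wt/null anti-TNF replicate 1 (9.42% of all genes) and 0 without wt/null anti-TNF replicate 2 (1.58%), wt/null isotype replicate 2 (3%) or wt/null isotype replicate 3 (4.38%), with a median of 0.20 to 0.67. H2-Oa was at 1.35 ± 0.49 (SE) and H2-Ob at 0.88 ± 0.35, with adjusted p of 0.89 in edgeR. Without replicate 2 of wt/null anti-TNF they were at 0.65 and 0.40.

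Within null/null mice the anti-TNF median was 0.22. No member had groups that did not overlap in the upward direction, where 3.87% of all genes did, and edgeR called 0 at an adjusted p below 0.05 (0% of all genes) and 0 at an unadjusted one (3.48%), with 1 by DESeq2 (3.71%) and 0 by limma voom (5.47%) at the unadjusted threshold. The median was 0.039 with limma voom and 0.049 without null/null isotype replicate 1, each with 4 of 10 below 0, and 0.44 without null/null isotype replicate 2. H2-Oa was at 0.66 ± 0.49 (SE) and H2-Ob at 0.73 ± 0.36. Without replicate 1 of null/null anti-TNF they were at 0.13 and 0.35. The classical chains were at 0.17 to 0.21 in this comparison, and the difference between the genotypes is the interaction given above, which no member passed.

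The classical chains moved together from library to library, and H2-O and H2-DMb2 followed them less closely. Each gene was set against the mean log2 CPM of the classical chains in the same library, and the SD of that difference over the 12 libraries was 0.047 for H2-Aa, 0.048 for H2-Ab1 and 0.015 for H2-Eb1, which are part of the mean. It was 0.077 for Cd74, 0.093 for H2-DMb1, 0.127 for H2-DMa and 0.130 for Ciita. It was 0.234 for H2-DMb2, 0.304 for H2-Ob and 0.436 for H2-Oa, the genes with the fewest counts. Without the 2 libraries that stand apart it was 0.249 for H2-Oa and 0.215 for H2-Ob, beside 0.212 for H2-DMb2 at a similar count. Pearson correlations of log2 CPM were taken over the 12 libraries, where all genes share depth and scaling. They were 0.960 to 0.991 among the classical chains and Cd74. Between those and the H2-O genes they were 0.785 to 0.915, and between those and H2-DMb2 0.777 to 0.871. Without the 2 libraries that stand apart these ranges were, in the same order, 0.922 to 0.996, 0.640 to 0.830 and 0.549 to 0.644. H2-Oa and H2-Ob correlated with each other at 0.979, and at 0.912 over the other 10 libraries.

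Put as a balance, the mean log2 CPM of the classical chains minus that of H2-Oa and H2-Ob was 8.58, 8.83 and 8.75 in wt/null isotype, beside 8.53, 8.64 and 8.995 in null/null isotype. The anti-TNF libraries gave 8.23, 7.86 and 8.50 in wt/null and 7.82, 8.68 and 8.41 in null/null. The values are not per length and serve only to compare libraries, and a lower value means more H2-O per classical chain. All 3 wt/null anti-TNF libraries were below all 3 wt/null isotype libraries, whereas the null/null groups overlapped. The means were 8.72 ± 0.128 (SD, n = 3) and 8.72 ± 0.241 in the isotype groups of wt/null and null/null, and 8.20 ± 0.319 and 8.30 ± 0.442 in their anti-TNF groups.

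Between the genotypes the balance differed by less than its spread: null/null minus wt/null was 0.057 on the log2 scale, beside a pooled SD within groups of 0.30. Anti-TNF minus isotype was -0.47, from 8.72 ± 0.173 (SD, n = 6) to 8.25 ± 0.349, and without the 2 libraries that stand apart it was -0.27. Those libraries had the lowest values, 7.82 and 7.86, and the other 10 were at 8.23 to 8.995. For H2-DMa and H2-DMb1 against H2-O, the peptide exchange factor against its inhibitor, the group means were also lower under anti-TNF. For wt/null the isotype mean was 5.03 ± 0.202 (SD, n = 3) and the anti-TNF mean 4.50 ± 0.429, and for null/null they were 5.03 ± 0.231 and 4.59 ± 0.560. Here the wt/null groups overlapped, with anti-TNF replicate 3 at 4.92 and isotype replicate 1 at 4.81. The libraries that stand apart were at 4.07 and 3.95, and the other 10 at 4.52 to 5.30. The classical chains minus H2-DMa and H2-DMb1 stayed at 3.68 to 3.71 in the group means. No p-value is given for these balances, because they are scores over genes picked with earlier results known.

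**Figure D3:**
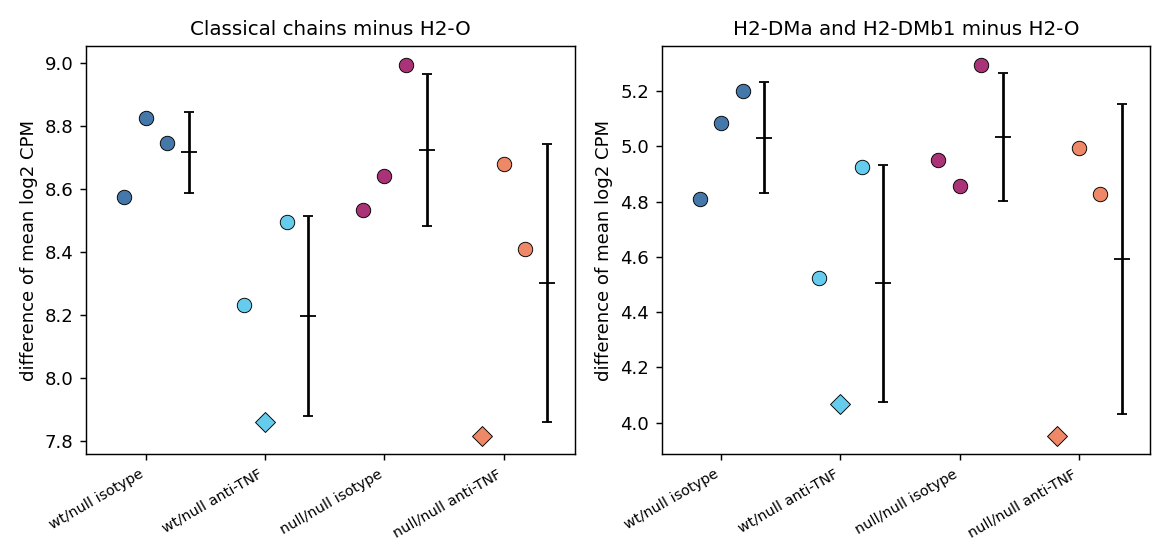
Mean log2 CPM of H2-Aa, H2-Ab1 and H2-Eb1 minus that of H2-Oa and H2-Ob (left), and of H2-DMa and H2-DMb1 minus that of H2-Oa and H2-Ob (right), by library, with mean and SD of 3 libraries as bars and diamonds for the 2 libraries that stand apart. The vertical axes do not start at 0. The diamonds, at 7.86 and 7.82 on the left, are the lowest points of both panels, and the isotype means of the 2 genotypes are level at 8.72.

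The 2 libraries that stand apart differed from each other in how the class II genes lay. In wt/null anti-TNF replicate 2 all 10 genes were above the range of the other 10 libraries, at 1.81 to 4.08 times their median. In null/null anti-TNF replicate 1, H2-Oa was at 2.44, H2-Ob at 2.04 and H2-DMb2 at 1.73 times that median and above the range, and Ciita, H2-Aa and H2-Eb1 lay above it by little. H2-Ab1, H2-DMa, H2-DMb1 and Cd74 were within the range there, at 1.04 to 1.32 times the median. So the H2-O genes were high in both libraries, and the classical chains were well above the others in only the first.

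Dendritic cell markers were high in the same 2 libraries. Flt3, the receptor that dendritic cell precursors need, was at 87.3 and 89.3 CPM there and at 20.4 to 32.1 CPM in the other 10, and Cd209a at 124 and 97.8 CPM against 32.8 to 65.8 CPM. Itgax, the CD11c gene, went the other way, at 695 and 800 CPM against 808 to 1303 CPM, and as the most abundant of the 14 markers it left their sum without a shift, at 1399 and 1425 CPM against 1137 to 1631 CPM. The sum of the 13 without Itgax, a set chosen after the values were seen, was 704 and 625 CPM against 227 to 329 CPM. Over the groups that sum was 233 to 275 CPM with isotype and 327 to 704 CPM with anti-TNF in wt/null, and 227 to 310 CPM with isotype and 287 to 625 CPM with anti-TNF in null/null, so that all 3 wt/null anti-TNF libraries were above the wt/null isotype libraries, as they were for H2-Oa and H2-Ob. The part of dendritic cells in the H2-O result was not tested.

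T and NK cell genes were also higher in the 2 libraries, at low levels: Cd8a was at 5.65 and 2.99 CPM against 0.304 to 1.09 CPM, and Ifng at 2.91 and 1.48 CPM against 0 to 0.427 CPM. Their summed level did not shift, at 170 and 124 CPM against 93.4 to 198 CPM, since Cd4 made up most of it, and no marker of the list was at 0 in all libraries. The part of these cells was not tested either. For B cells, a well known source of H2-O, 1 of 12 markers was above and 1 below all other 10 libraries in both. Fcrla was above, at 2.17 and 2.16 CPM against 0.744 to 2.06 CPM, and Ebf1 below, at 0.778 and 0.568 CPM against 0.814 to 2.46 CPM. Cd79b, a chain of the B cell receptor complex, was at 19.8 and 18.6 CPM against 9.81 to 19.0 CPM, Ms4a1 at 0.409 and 0.227 CPM, and Pax5 at 0 counts in both. The B cell list summed to 166 and 146 CPM against 121 to 169 CPM in the other 10, most of it Cd22, and its part was not tested. The monocyte markers Ly6c2, Ccr2 and Plac8 were above the other 10 as well, and the monocyte list summed to 1326 and 1540 CPM against 953 to 1281 CPM, whose part was not tested. The list of 9 genes from cells outside the blood lineage summed lower, to 223 and 163 CPM against 305 to 645 CPM, most of it the collagen gene Col1a1 at 130.1 and 76.5 CPM against 212 to 564 CPM. Of its other genes Pecam1 and Pax7 were above the other 10 libraries, and the part of these cells was not tested.

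**Figure D4:**
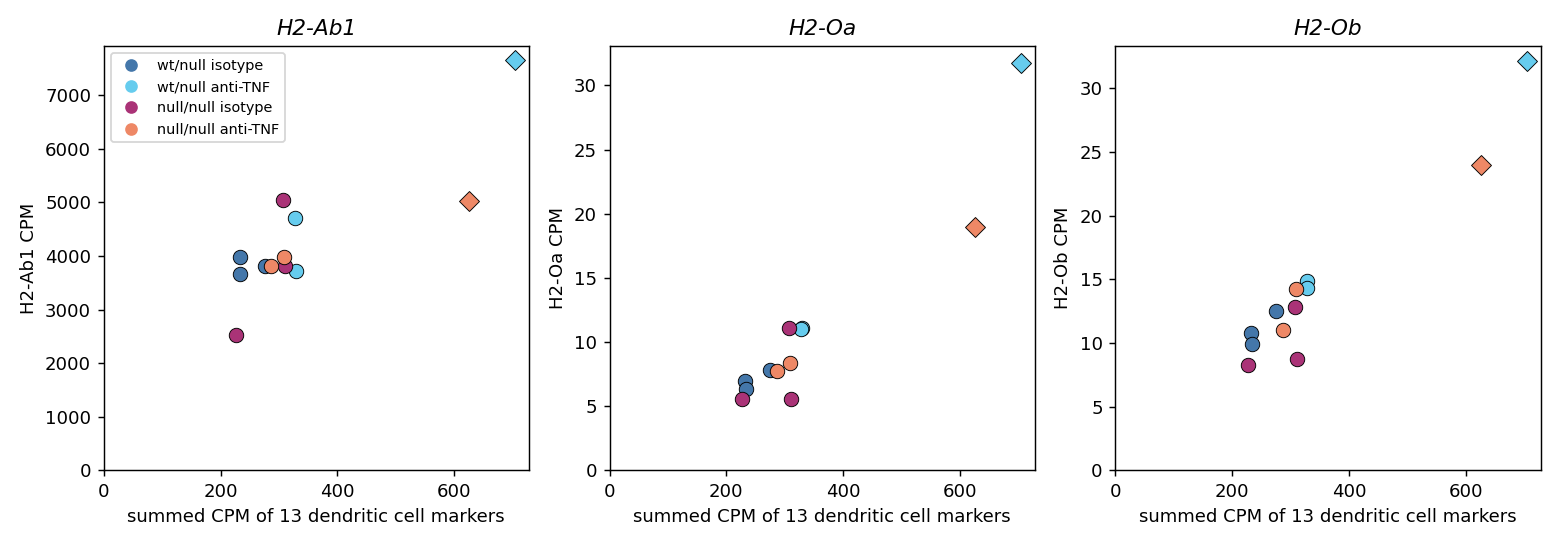
CPM of H2-Ab1, H2-Oa and H2-Ob in each of the 12 libraries against the summed CPM of 13 dendritic cell markers (Itgax left out after the values were seen), coloured by group, with diamonds for the 2 libraries that stand apart. The diamonds lie at 704 and 625 CPM on the horizontal axis, right of the other 10 at 227 to 329 CPM, and for H2-Oa and H2-Ob they are also the 2 highest points.

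The genes whose levels ran most like the class II genes over the 12 libraries were looked up among 9952 genes whose mean log2 CPM reached 2, leaving out the members. For the mean of the classical chains, the 8 nearest were Irf8, Ppfia4, Ube2q1, Arhgap27, Bin3, Cxcr3, Pld4 and Ccdc102a. Irf8, a transcription factor of the monocyte and dendritic cell lineages, was first with a Pearson correlation of 0.968 over 12 libraries and 0.931 over the other 10, at 291 to 656 CPM. For H2-Ob, the 8 nearest were Dpp4, Plbd1, Grap2, Cd209a, Parp8, Ctnnd2, Rassf5 and Vrk2. Dpp4, a surface peptidase and a member of the dendritic marker list, was first at 0.965 over 12 libraries and 0.939 over the other 10, with 63.2 and 58.5 CPM in the 2 libraries that stand apart and 11.3 to 20.1 CPM in the others. Cd209a, at 0.953, belongs to that list too. The lists of 8 shared no gene. These correlations were picked as the highest of many and share library composition and depth, so they are descriptions.

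None of the factors listed for class II promoters passed the test. Of 10 genes listed for them (the RFX subunits Rfx5, Rfxap and Rfxank, the NF-Y subunits Nfya, Nfyb and Nfyc, and Creb1, Crebbp, Ep300 and Kat2b), all 10 were tested, and 0 rose and 0 fell in edgeR in any of the 7 comparisons. The median log2 fold change was 0.0056 for genotype and 0.019 for anti-TNF, each averaged over the other factor. Rfx5, which binds the X box, was at 0.18 ± 0.13 (SE) for anti-TNF and -0.10 ± 0.13 for genotype. Nfya, which binds the Y box, was at 0.02 ± 0.05 and 0.03 ± 0.05.

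On the route from IFN-γ to Ciita, 10 of 10 listed genes were tested, and for genotype 1 fell (Ifngr1) and 0 rose. Ifngr1 fell by 1.36 on the log2 scale (SE 0.084, edgeR adjusted p = 1.43e-05). Irf1, a direct activator of Ciita, was at -0.55 ± 0.25 (SE, edgeR adjusted p = 1.00). The Ciita estimate of -0.30 thus lay nearer 0 than that of Irf1, a difference that was not tested. Spi1, the PU.1 gene of myeloid cells, was at 0.04 ± 0.07 and the second receptor chain gene Ifngr2 at 0.04 ± 0.06. For anti-TNF, 0 of the 10 were called, with 9 estimates above 0 and a median of 0.15.

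Genes that supply and turn over class II peptides had estimates on either side of 0. All 11 listed were tested and 0 were called in any of the 7 comparisons, with medians of 0.041 for genotype and -0.0097 for anti-TNF. Ctss, the protease that trims Cd74 down to its last piece, was at 0.17 ± 0.10 (SE) for anti-TNF and -0.09 ± 0.10 for genotype. Lgmn, the endopeptidase that cuts Cd74 earlier, was at -0.0014 ± 0.086 for anti-TNF, and Ctsb at -0.04 ± 0.08. March1, the ubiquitin ligase that removes class II from the surface, was at 0.30 ± 0.16 for anti-TNF. Of 6 co-stimulation genes 0 were called, with medians of -0.028 for genotype and 0.26 for anti-TNF. Among them Cd86 was at -0.05 ± 0.09 and Icosl at 0.42 ± 0.21 for anti-TNF.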

How the data were processed

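The deposited table holds raw counts per gene symbol for 12 samples, per the labels from sorted cells with an RNeasy Micro extraction, a stranded NEBNext mRNA kit and paired-end reads. The submitters' processing notes name bcl2fastq 2.20, Bowtie, STAR and mm10 without roles. The counting tool, its strand setting and the annotation are not given in the sources used here. Columns were matched to samples by title, with 0 left over. Replicates were numbered in listing order.

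Genes were kept by filterByExpr (12981 of 24421), scaled by TMM and fitted as 4 group means with edgeR 4.0.16 robust quasi-likelihood models (R 4.3.3; limma 3.58.1), two-sided, with Benjamini-Hochberg adjustment over all genes kept. There were 7 comparisons. The biological coefficient of variation was 0.179. Fold changes and their intervals come from this fit. Library totals ran from 23.2 to 29.9 M counts.

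The members and lists, and the rule for named genes (all members, up to 4 genes per list by level, any past the threshold, and the 8 genes most like each pattern), were chosen with earlier results of these data known. Irf1, Ifngr2, Rfx5, Nfya, March1 and the marker genes named were picked for their roles or values. Other settings were DESeq2 1.42.0, limma voom with quality weights, no filter, a filter of 1 CPM in 3 samples, scaling by relative log expression, a prior count of 0.5, the title number as a block, the title number and letter as a replicate block (added after the values were seen), the 2 libraries that stand apart left out, and each library left out. Under anti-TNF, libraries of the 2 genotypes with the same title number and letter deviated together from their group means, at correlations of 0.49, 0.63 and 0.48 over genes, and the labels do not say what they share. The fits were tested on simulated counts with known genotype changes, the same spread setting for every gene and no libraries that stand apart. The simulation thus does not cover the effect of such libraries.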

Additional observations from a re-analysis of the deposited data

How the results depend on the processing

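In all 7 comparisons 0 of the 10 members were called under every other setting run, with each library left out included and apart from the 3 adjusted p that DESeq2 did not give. DESeq2 called more genes in all, 4 for genotype averaged over the antibodies, 2 under isotype, 2 under anti-TNF and 14 for anti-TNF averaged over the genotypes, where edgeR called 1, 1, 1 and 0, and the cause was not tested. Among 200 estimates of members under other settings, 0 had the opposite sign for anti-TNF averaged over the genotypes, 0 within wt/null and 10 within null/null. For genotype it was 7 averaged, 15 under isotype and 5 under anti-TNF, and 11 for the interaction. Leaving out 1 library at a time, the genotype estimate ranged from -0.30 to 0.0053 for H2-Ab1, from -0.048 to 0.35 for H2-DMb2, from -0.55 to 0.072 for H2-Oa and from -0.43 to 0.0055 for H2-Ob, with the upper end in each without wt/null anti-TNF replicate 2. The anti-TNF estimate of H2-Oa ranged from 0.66 to 1.21 and that of H2-Ob from 0.56 to 0.92, lowest without that library. The balance of classical chains minus H2-O ranged from -0.038 to 0.18 for genotype and from -0.57 to -0.35 for anti-TNF. With H2-Oa alone the anti-TNF difference was -0.55, and with H2-Ob alone -0.39.

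The leading title number, 40 or 46, changed no call of a member as a block. The number and letter (40A, 40B, 40C, 46C) are shared by 1 library of each genotype under an antibody, and taking them as a replicate block was chosen after seeing the data. Same-named isotype libraries correlated at 0.065, -0.0038 and 0.12 in their deviations from the group means. With this replicate block 0 members were called in each comparison, with medians of -0.21 for genotype, -0.072 under isotype, -0.32 under anti-TNF, 0.37 for anti-TNF, 0.49 within wt/null, 0.25 within null/null and -0.25 for the interaction. All genes called were 1, 1, 1, 0, 0, 0 and 0 in that order. Low counts limit H2-Oa, H2-Ob and H2-DMb2, and 3 libraries a group limit every comparison.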
